A study of Mus musculus with 9 samples.

Results

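The ceramide synthesis enzymes are 10 genes of the pathway that builds ceramide from serine and a fatty acid, taken by their symbols from a table of 23317 genes. All 10 had a row, and all 10 passed the filter on low counts that left 14227 genes for testing. They were measured by low-input RNA sequencing of cells labelled as haematopoietic stem cells (HSCs), the bone marrow cells from which the blood lineages arise, in 3 groups of 3 libraries. The groups were old HSCs treated with ABC294640 (by the submitters' text a specific inhibitor of the sphingosine kinase SphK2), old HSCs without it, and young HSCs. All mice were wild type, the ages given by the protocols are 20 to 24 months and 2 to 4 months, assigned here to old and young by their wording, and each library came from 1500 sorted bone marrow cells. How the cells were gated, and how much ABC294640 was given, by which route and for how long, is not known here. Separate animals are not named for the 3 libraries of each group, so the p-values speak only of the spread between these samples, and that spread may be technical.

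Ceramide is the central lipid of the sphingolipid family. Serine palmitoyltransferase joins serine to palmitoyl-CoA, a reductase and a ceramide synthase turn the product into dihydroceramide, and a desaturase then inserts the double bond that makes ceramide. Ceramide is used for sphingomyelin and glycosphingolipids or broken down to sphingosine, the substrate of the sphingosine kinases, and it is known as a lipid that can restrain growth and survival of blood cells. In published work ABC294640 has also been described as lowering dihydroceramide desaturase activity in cultured cells.

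Old HSCs differed from young HSCs in 6 of the 10 genes. These lay at the first step of the pathway, among the ceramide synthases and at the last step. Sptssa, Kdsr, Cers4 and Cers5 did not pass the threshold. Of all tested genes, 39.4% passed the threshold in this comparison, in which age and the donors' sex cannot be told apart. Degs2, one of the desaturase genes, was 7.33-fold higher in old HSCs, and the other desaturase gene, Degs1, was lower (0.738-fold). Sptlc1 and Sptlc2, the large subunits of serine palmitoyltransferase, and Cers2, the main ceramide synthase gene of these cells, were 1.39-fold to 1.42-fold higher, and Cers6 was 1.26-fold higher. With ABC294640, none of the 10 genes differed from untreated old HSCs past the threshold, which 1.19% of all tested genes passed.

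The stretches of DNA before the start sites of both desaturase genes, which moved in opposite directions, and of both large subunit genes of serine palmitoyltransferase, which moved together, are shown from RefSeq on GRCm38.p6. Each lies before the start that RefSeq gives and holds no base that GENCODE places in an exon of the gene, and all 4 genes lie on the minus strand. Capitals mark the motifs searched on both strands, namely the GC box GGGCGG, the E-box CACGTG, the CCAAT box CCAAT and the TATA box TATAAA. The 4 windows are chr12:108702316-108702556 for Degs2, chr1:182282225-182282445 for Degs1, chr13:53377398-53377611 for Sptlc1 and chr12:87388356-87388605 for Sptlc2.
Degs2: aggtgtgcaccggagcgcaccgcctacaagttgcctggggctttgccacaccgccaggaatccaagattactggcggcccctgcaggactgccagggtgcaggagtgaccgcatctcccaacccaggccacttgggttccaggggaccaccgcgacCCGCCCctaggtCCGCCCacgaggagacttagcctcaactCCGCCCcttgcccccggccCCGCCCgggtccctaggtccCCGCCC
Degs1: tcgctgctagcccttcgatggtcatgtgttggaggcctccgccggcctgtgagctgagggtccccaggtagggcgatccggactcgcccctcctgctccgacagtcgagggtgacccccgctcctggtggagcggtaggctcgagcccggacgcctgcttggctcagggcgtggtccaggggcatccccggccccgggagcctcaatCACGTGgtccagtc
Sptlc1: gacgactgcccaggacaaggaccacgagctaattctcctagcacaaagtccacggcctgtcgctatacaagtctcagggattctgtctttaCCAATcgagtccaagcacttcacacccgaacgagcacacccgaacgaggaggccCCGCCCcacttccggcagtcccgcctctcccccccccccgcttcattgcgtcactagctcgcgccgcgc
Sptlc2: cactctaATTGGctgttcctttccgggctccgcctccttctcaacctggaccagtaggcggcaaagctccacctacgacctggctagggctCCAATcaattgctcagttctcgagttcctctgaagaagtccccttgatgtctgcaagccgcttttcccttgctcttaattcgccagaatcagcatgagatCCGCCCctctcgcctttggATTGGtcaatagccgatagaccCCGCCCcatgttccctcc
The Degs2 window held 5 GC boxes, a number that 1.65% of 32851 mouse promoter windows of that length reach, and none of the other motifs. The Degs1 window held 1 E-box, as do 5.02% of windows of its length, and no GC box, which 28.7% of those windows hold. This Degs1 window lies inside the GENCODE span of the gene, downstream of its outermost start. The Sptlc1 window held 1 GC box and 1 CCAAT box, present in 27.6% and 30.3% of windows of its length. The Sptlc2 window held 2 GC boxes and 3 CCAAT boxes, where 32.7% and 33.8% of windows of its length hold at least 1. At least 2 GC boxes are held by 16.7% of those windows. No TATA box was found in any of the 4 windows. These matches are letters in a window and no measure of binding, and the windows compared were not matched for GC content.

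Levels are CPM, counts divided by a library size scaled by the trimmed mean of M values (TMM), given as mean ± SD (n = 3), and a level per length is CPM per kilobase of annotated exon. Each adjusted p comes from the quasi-likelihood test of edgeR, adjusted by Benjamini-Hochberg across 14227 genes, with a threshold of 0.05, and log2 fold changes carry their standard error. Library totals ran from 16663559 to 23254225 counts. The 12 stem and progenitor markers checked were all detected, with Kit at 113 CPM but Procr at 2.54 CPM and Slamf1 at 7.47 CPM in old HSCs, while the granule gene Mpo, of myeloid progenitors, stood at 16800 CPM. The summed level of the 12 was 811 to 821 CPM in treated old, 778 to 786 CPM in old and 940 to 955 CPM in young libraries. Its largest parts were Cd48 (235 CPM in old and 296 CPM in young HSCs) and Cd34 (150 and 188 CPM). In old against young HSCs 7 of the 12 fell, Ly6a the most (log2 fold change -0.82). Hlf and Flt3, 2 of the 12, rose, and Kit, Slamf1 and Mecom did not pass the threshold. Summed levels of 10 granulocyte and monocyte markers were 47400 to 48400 CPM in treated old, 47600 to 50600 CPM in old and 32300 to 36400 CPM in young libraries. In old against young HSCs 6 of these 10 rose and 2 fell, Csf1r (log2 fold change -0.7) and Ly6c2 (-0.55). Levels of 6 erythroid markers summed to 401 to 404, 356 to 359 and 796 to 838 CPM in treated old, old and young libraries. Those of 5 megakaryocyte markers summed to 278 to 293, 212 to 241 and 428 to 471 CPM in the same order. The 9 B and plasma cell markers summed to 581 to 603, 615 to 698 and 251 to 281 CPM, mostly Igkc (533 CPM in old and 165 CPM in young HSCs), and of the 7 tested 2 rose and 1, Ebf1, fell in old HSCs, with a median log2 fold change of -0.10. The 7 T and NK cell markers summed to 1900 to 2070, 1740 to 1890 and 1330 to 1490 CPM, nearly all of it Nkg7 (1830 CPM in old and 1380 CPM in young HSCs), and of the 5 tested Nkg7 rose and Cd8a fell, with a median of -0.53. The 6 stromal and endothelial markers summed to 34.0 to 35.3, 30.0 to 36.7 and 39.1 to 45.5 CPM. No marker was at 0 in all 9 libraries. The markers move with the age groups, and 3 of them also differed between treated and untreated old HSCs. The megakaryocyte gene Pf4 (log2 fold change 0.37, adjusted p = 0.000631) and the erythroid gene Car1 (0.19, adjusted p = 0.0255) were higher with treatment. Jchain was lower (-0.28, adjusted p = 0.0164), and no other tested marker passed the threshold there. The part of the markers in the results below was not tested. The Y-linked gene Ddx3y was at 32.3 to 43.1 CPM in treated old, 35.9 to 44.7 CPM in old and 0.664 to 1.18 CPM in young libraries, and Eif2s3y averaged 77.4 ± 5.77, 78.1 ± 2.92 and 2.55 ± 0.848 CPM in the same order. Kdm5d averaged 4.17, 4.45 and 0.0629 CPM. Uty differed less, at 13.9 to 15.4 CPM in treated old, 12.6 to 14.6 CPM in old and 5.25 to 6.17 CPM in young libraries. All 6 old libraries thus carry more RNA of each of these Y-linked genes than the 3 young ones. Age and the sex of the donors cannot be told apart in any comparison with young HSCs. In bulk RNA, fewer cells of a type and less RNA per cell cannot be told apart.

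The comparison of old with young HSCs addresses age, with the donors' sex as a second difference. Of the 10 ceramide synthesis genes, 5 rose, 1 fell and 4 did not pass the threshold, against a background of 39.4% of all tested genes past it, 19.6% higher and 19.8% lower. The median log2 fold change was 0.23 over the 10 genes and -0.03 over all tested genes. For 7 of the 10 genes the old libraries did not overlap the young ones, as for 48.4% of all tested genes. The genes were chosen with earlier results of these data known, so the count is a description.

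**Figure D1:**
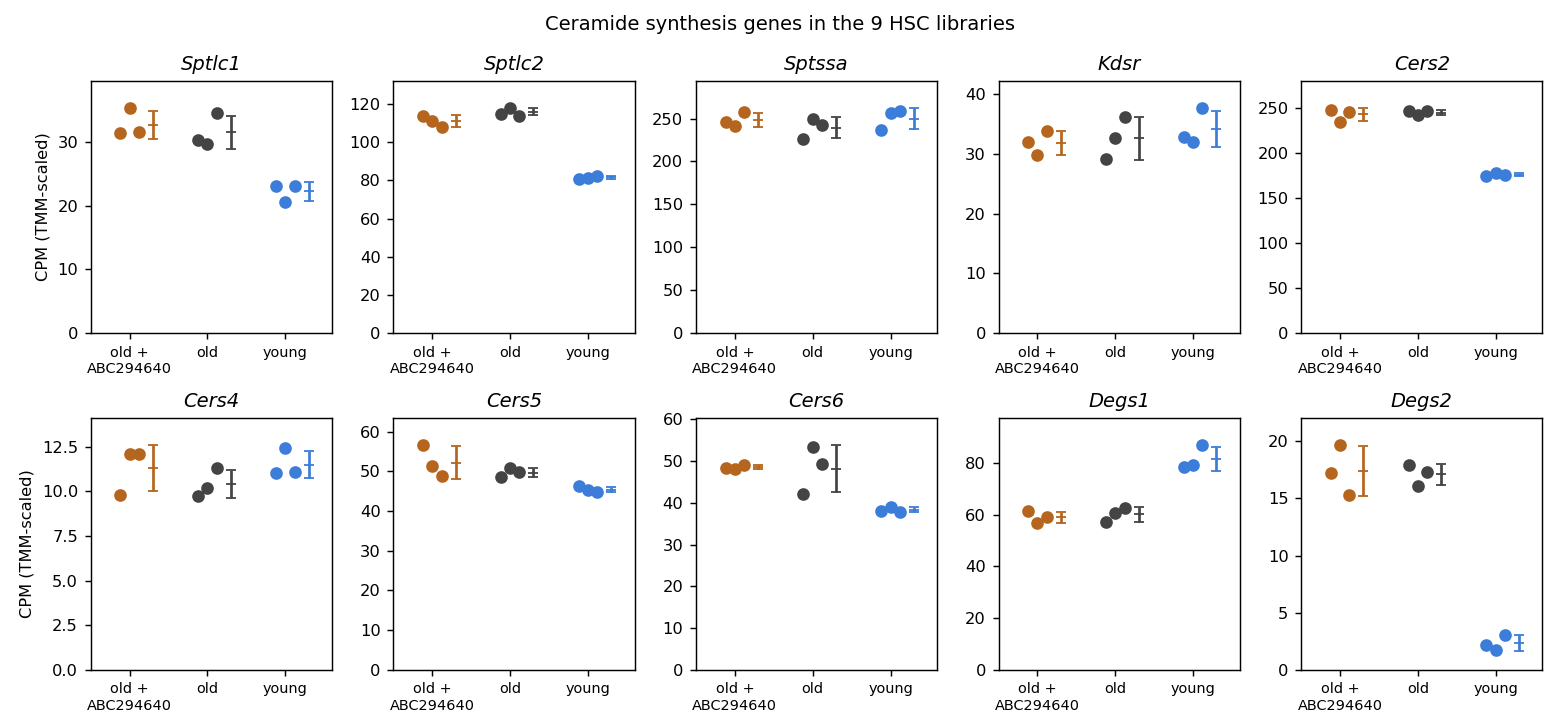
CPM of each of the 10 genes (y axis, from 0) in treated old, old and young HSC libraries (x axis). Each dot is 1 library and the bar beside it is the mean ± SD. Degs2 sits at 15.3 to 19.7 CPM in the 6 old libraries and at 1.72 to 3.08 CPM in the 3 young ones.

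The desaturases catalyse the last step. Degs2 (ENSMUSG00000021263, chr12:108678711-108702315 in GRCm38) encodes a desaturase that also hydroxylates dihydroceramide to phytoceramide and is best known from gut, kidney and skin. Its levels were 17.9, 16.1 and 17.3 CPM in the old libraries, against 2.16, 1.72 and 3.08 CPM in the young libraries. The groups lay far apart, with all old libraries high. The log2 fold change was 2.87 ± 0.15 (adjusted p = 5.48e-12).

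Degs1 (ENSMUSG00000038633, chr1:182275772-182282804) encodes the desaturase that most tissues rely on. Its levels were 57.1, 60.7 and 62.6 CPM in the old libraries, against 78.3, 79.3 and 87.0 CPM in the young libraries. The groups did not overlap, and the old ones were lower. The log2 fold change was -0.44 ± 0.057 (adjusted p = 4.3e-06). Per length, Degs2 made up 22.2% ± 1.51 of the summed level of both desaturase genes in old HSCs and 2.75% ± 0.655 in young HSCs. The two-sided exact permutation p was 0.1, the smallest that 3 against 3 libraries allow. The summed level per length was 29.8 ± 0.972 in old HSCs and 32.4 ± 2.11 in young HSCs (exact permutation p = 0.1), and with the length of the longest coding transcript, a choice made after seeing the data, 39.3 ± 1.22 and 41.1 ± 2.72 (exact permutation p = 0.4).

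Counting of Degs2 carries a limit that Degs1 does not share. Exons of Degs2 overlap those of Evl, an actin regulator gene on the opposite strand, over 278 bases, or 10.8% of the exon bases of Degs2, and use of strand in counting is not stated, so reads there cannot be assigned to either gene with certainty. Evl stood at 4.20 ± 0.658 CPM in old HSCs and 5.36 ± 0.773 CPM in young HSCs (log2 fold change -0.35 ± 0.16, adjusted p = 0.0938), below Degs2 in all 3 old libraries and above it in all 3 young ones. None of the 9 deposited values of Degs2 was a whole number, whereas all 9 of Degs1 were. Of the 31-base words of Degs2, 9.73% recur in transcripts of other genes, in each case Evl.

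Serine palmitoyltransferase catalyses the first and rate-limiting step. Sptlc1 (ENSMUSG00000021468, chr13:53332748-53377397) encodes the subunit that holds the complex together. Its levels were 30.4, 29.8 and 34.6 CPM in the old libraries, against 23.1, 20.6 and 23.2 CPM in the young libraries, with a log2 fold change of 0.50 ± 0.079 (adjusted p = 4.53e-05). Sptlc2 (ENSMUSG00000021036, chr12:87305058-87388355) encodes the catalytic subunit. It stood at 115, 118 and 114 CPM in the old libraries, against 81.0, 81.1 and 82.6 CPM in the young libraries, with a log2 fold change of 0.50 ± 0.047 (adjusted p = 3.01e-08). For both subunit genes all old libraries lay above all young ones. The ratio of their levels per length, Sptlc2 over Sptlc1, was 1.61 ± 0.146 in old HSCs and 1.61 ± 0.102 in young HSCs (exact permutation p = 0.9).

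Sptssa (ENSMUSG00000044408, chr12:54645392-54656573), the small subunit that raises the activity of the complex, had 226, 249 and 243 CPM in the old libraries, against 237, 256 and 259 CPM in the young libraries. These ranges overlapped, and the log2 fold change of -0.06 ± 0.05 did not pass (adjusted p = 0.321, 95% interval -0.17 to 0.04). With library totals as the only scaling it passed as lower (-0.15 ± 0.051, adjusted p = 0.0253). Per length, Sptssa over Sptlc2 was 11.1 ± 0.489 in old HSCs and 16.4 ± 0.701 in young HSCs (exact permutation p = 0.1, the smallest possible).

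Kdsr (ENSMUSG00000009905, chr1:106720459-106759727) encodes the reductase of the second step. It had 29.1, 32.7 and 36.2 CPM in the old libraries, against 32.9, 32.0 and 37.7 CPM in the young libraries. The groups overlapped, and the 95% interval of the log2 fold change was -0.24 to 0.10 (adjusted p = 0.537).

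Ceramide synthases attach the second fatty acid, and each prefers certain chain lengths. Cers2 (ENSMUSG00000015714, chr3:95314791-95323599), which prefers very long chains, had 247, 242 and 247 CPM in the old libraries, against 175, 178 and 176 CPM in the young libraries. All old libraries were higher, with a log2 fold change of 0.48 ± 0.043 (adjusted p = 1.95e-08). On the other strand, exons of the antisense gene 6330562C20Rik, not analysed here, overlap 3.92% of the exon bases of Cers2, and those of Setdb1 overlap 2.04%. Setdb1 stood at 25.8 ± 0.536 CPM in old HSCs and 26.6 ± 2.64 CPM in young HSCs.

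Cers6 (ENSMUSG00000027035, chr2:68861441-69114282), which prefers palmitoyl chains, had 42.1, 53.4 and 49.2 CPM in the old libraries, against 38.0, 39.0 and 37.8 CPM in the young libraries. The old libraries spread more widely but lay above all young ones (log2 fold change 0.34 ± 0.071, adjusted p = 0.000907). Cers5 (ENSMUSG00000023021, chr15:99734881-99772885), with a like preference, had 48.5, 50.8 and 49.8 CPM in the old libraries, against 46.2, 45.4 and 44.8 CPM in the young libraries. Its groups did not overlap, yet the difference did not pass (log2 fold change 0.13 ± 0.061, adjusted p = 0.102), except without the filter on low counts (adjusted p = 0.038).

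Cers4 (ENSMUSG00000008206, chr8:4493026-4531680), which prefers chains of intermediate length, had 9.71, 10.2 and 11.3 CPM in the old libraries, against 11.0, 12.4 and 11.1 CPM in the young libraries. The groups overlapped, and the 95% interval of the log2 fold change was -0.37 to 0.09 (adjusted p = 0.317). Of its 31-base words, 9.81% recur in transcripts of other genes, mostly the pseudogene Vmn2r-ps89, which overlaps 7.22% of its exon bases on the other strand. The summed level per length of the 4 ceramide synthase genes was 87.1 ± 0.58 in old HSCs and 66.0 ± 0.559 in young HSCs (exact permutation p = 0.1). Cers2 held 76.7% ± 1.05 of that sum in old HSCs and 72.6% ± 0.27 in young HSCs, and Cers5 held 16.1% ± 0.322 in old HSCs and 19.4% ± 0.328 in young HSCs (exact permutation p = 0.1 for both).

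**Figure D2:**
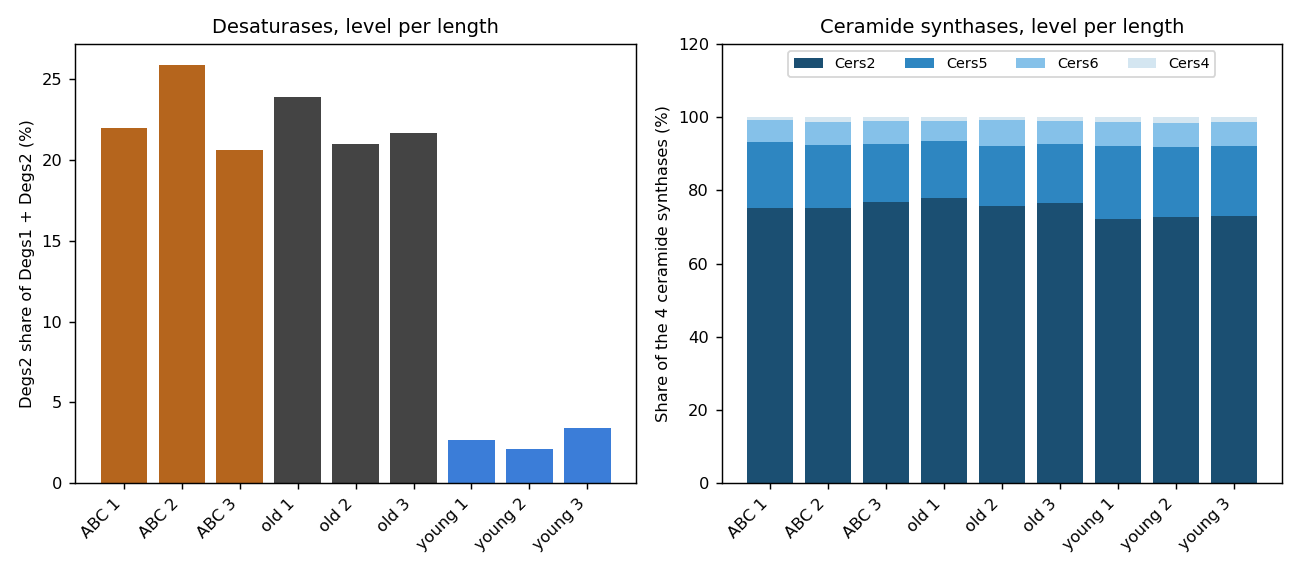
Left, share of the summed level per length of both desaturase genes that Degs2 held in each of the 9 libraries (y axis, percent). Right, shares of the 4 ceramide synthase genes (y axis, percent, stacked). Each bar is 1 library (ABC, ABC294640-treated old). The Degs2 share averages 22.8% in treated old, 22.2% in old and 2.75% in young libraries, and Cers2 is the largest ceramide synthase share in all 9.

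In order of level per length, the genes in old HSCs were Sptssa (158), Cers2 (66.7), Degs1 (23.2), Sptlc2 (14.3), Cers5 (14.0), Sptlc1 (8.89), Degs2 (6.62), Cers6 (5.43), Kdsr (4.01) and Cers4 (0.848). Of the neighbours in that order, the libraries of Sptlc2 and Cers5 overlapped. In young HSCs Degs2 came last (0.898 ± 0.27) and overlapped Cers4 (0.936 ± 0.0622), and Cers6 (4.31 ± 0.0706) overlapped Kdsr (4.20 ± 0.374). With the length of the longest coding transcript, Degs2 in young HSCs stood just above Cers4 (1.34 ± 0.404 and 1.21 ± 0.0804), and it stayed below Sptlc1 and above Cers6 in old HSCs (9.90 ± 0.52).

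The comparison of ABC294640-treated with untreated old HSCs asks what the inhibitor changed. None of the 10 genes passed the threshold by edgeR, 0 had an unadjusted p under 0.05 and 0 passed by DESeq2, against a background of 1.19% of all tested genes past the threshold (0.766% higher and 0.429% lower) and 8.83% at an unadjusted p under 0.05. The number of genes behind that background, 170, became 286 without young replicate 1, 91 without old replicate 1, 77 without old replicate 2, 69 without treated replicate 1 and 48 without treated replicate 2. The count over the 10 genes was 0 in each of these fits. The median log2 fold change was 0.01 over the 10 genes and 0.00 over all tested genes.

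Degs2 had 17.2, 19.7 and 15.3 CPM in the treated libraries, against 17.9, 16.1 and 17.3 CPM in untreated old libraries (log2 fold change 0.02 ± 0.12, adjusted p = 0.986). The 95% interval of its fold change was 0.854 to 1.20. Degs1 had 61.2, 56.7 and 58.9 CPM in the treated libraries, against 57.1, 60.7 and 62.6 CPM in the untreated ones, with an interval of 0.899 to 1.07. The libraries of both groups overlapped for both desaturases, and Degs2 held 22.8% ± 2.72 of their summed level per length in treated old HSCs and 22.2% ± 1.51 in untreated old HSCs (exact permutation p = 0.8).

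Sptlc2 was the only one of the 10 genes whose treated libraries (114, 111 and 108 CPM) did not overlap the untreated old ones (115, 118 and 114 CPM), as was the case for 15.5% of all tested genes, and the nearest pair, 114 CPM in both groups, was parted by less than the rounding. Its log2 fold change was -0.06 ± 0.046 (adjusted p = 0.807). Per length, Sptssa over Sptlc2 was 11.9 ± 0.666 in treated and 11.1 ± 0.489 in untreated old HSCs (exact permutation p = 0.1, the smallest possible). For the other ratios, shares and sums per length the exact permutation p was 0.3 or more. Sptlc1 averaged 32.8 ± 2.2 CPM in treated and 31.6 ± 2.6 CPM in untreated old HSCs. Cers2 averaged 243 ± 7.16 CPM in treated and 245 ± 2.78 CPM in untreated old HSCs, a difference smaller than either spread. Over all 10 genes the 95% intervals of the fold change ran from 0.854, the lower bound of Degs2, to 1.28, the upper bound of Cers4. Sphk2, which encodes the target of the inhibitor, had 6.35 CPM in treated and 7.74 CPM in untreated old HSCs (log2 fold change -0.28 ± 0.15, adjusted p = 0.621).

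**Figure D3:**
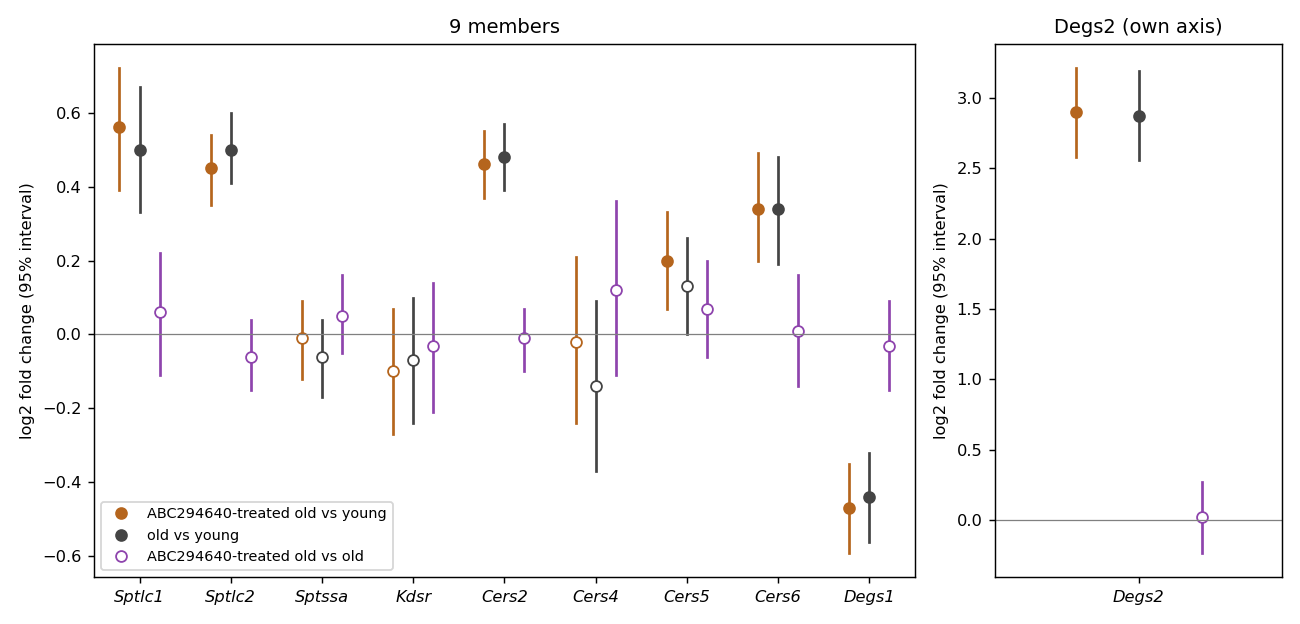
Log2 fold change (y axis) of each gene (x axis) with its 95% interval, for treated old against young, old against young and treated old against untreated old HSCs. Filled points have an adjusted p under 0.05, and Degs2 has its own axis. All 10 points of treated against untreated old HSCs are open.

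The comparison of treated old with young HSCs asks which differences between old and young HSCs stood in the presence of the inhibitor. Here too, age and the donors' sex cannot be told apart. This comparison shares its young libraries with that of old with young HSCs above. Of the 10 genes, 6 rose and 1 fell, against a background of 37.6% of all tested genes past the threshold (19.1% higher and 18.5% lower). Degs2 averaged 17.4 ± 2.23 CPM in treated old HSCs and 2.32 ± 0.698 CPM in young HSCs (log2 fold change 2.90 ± 0.15, adjusted p = 5.86e-12). Degs1 averaged 58.9 ± 2.24 CPM in treated old HSCs and 81.5 ± 4.81 CPM in young HSCs (-0.47 ± 0.058, adjusted p = 2.11e-06).

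Sptlc1 rose by 0.56 ± 0.079 on the log2 scale (adjusted p = 1.42e-05), Sptlc2 by 0.45 ± 0.047 (adjusted p = 2.16e-07), Cers2 by 0.46 ± 0.043 (adjusted p = 3.7e-08) and Cers6 by 0.34 ± 0.071 (adjusted p = 0.000769). Cers5 had 56.7, 51.3 and 48.7 CPM in the treated libraries, against 46.2, 45.4 and 44.8 CPM in the young libraries, and passed here (0.20 ± 0.061, adjusted p = 0.0146). That call was lost without treated replicate 1 (adjusted p = 0.0937), with a stricter filter (adjusted p = 0.08) and with library totals as the only scaling (adjusted p = 0.223). Sptssa, Kdsr and Cers4 did not pass (adjusted p = 0.859, 0.361 and 0.915).

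Other genes around the pathway were read from lists that share no member with the 10. Of the regulators and rarer enzymes of ceramide synthesis, 4 of 9 were tested, and 0 passed between old and young HSCs by edgeR or DESeq2 (1 at an unadjusted p under 0.05). Ormdl1 and Ormdl2, whose proteins hold serine palmitoyltransferase back, passed between treated old and young HSCs. Ormdl1 averaged 61.7 ± 1.59 CPM in treated old and 53.7 ± 0.48 CPM in young HSCs (adjusted p = 0.00434), and Ormdl2 141 ± 3.85 CPM in treated old and 126 ± 2.33 CPM in young HSCs (adjusted p = 0.00868). Against untreated old HSCs their log2 fold changes were 0.08 ± 0.052 and 0.13 ± 0.046 (adjusted p = 0.727 and 0.31), and untreated old against young HSCs gave 0.12 ± 0.052 and 0.04 ± 0.046 (adjusted p = 0.0661 and 0.574).

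Of the genes that elongate fatty acids, 5 rose and 0 fell of 11 tested in old against young HSCs. Elovl5, an elongase of polyunsaturated chains, averaged 151 ± 2.14 CPM in old and 108 ± 2.66 CPM in young HSCs (log2 fold change 0.48 ± 0.044, adjusted p = 2.92e-08). The other named genes were the dehydratase genes Hacd1 and Hacd3 and the reductase gene Tecr, with log2 fold changes of 0.20, 0.26 and 0.17. Of the genes that supply serine and acyl-CoA, 4 rose and 3 fell of 15 tested. Psph and Psat1, of serine synthesis, were 1.5-fold and 1.44-fold higher in old HSCs (adjusted p = 1.04e-08 and 2.63e-08), and the acyl-CoA synthetase gene Acsl1 was 1.47-fold higher (adjusted p = 1.18e-06). Acsl6 was lower at a low level, 0.594 ± 0.0974 CPM in old and 1.35 ± 0.094 CPM in young HSCs (adjusted p = 0.00688).

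Of the genes that use or return ceramide, 9 rose and 4 fell of 24 tested in old against young HSCs. Sgms2, a sphingomyelin synthase gene, had 120, 129 and 127 CPM in the old libraries, against 52.7, 58.7 and 59.8 CPM in the young libraries (log2 fold change 1.14 ± 0.055, adjusted p = 1.21e-12). Cerk, the ceramide kinase gene, averaged 32.6 ± 2.57 CPM in old and 19.5 ± 1.45 CPM in young HSCs (adjusted p = 2.76e-07). Asah1, the lysosomal ceramidase gene, averaged 111 ± 5.79 CPM in old and 82.1 ± 6.93 CPM in young HSCs (adjusted p = 6.79e-06). Sphk1, a sphingosine kinase gene, was lower, at 8.45 ± 1.07 CPM in old and 15.0 ± 0.891 CPM in young HSCs (adjusted p = 8.21e-06).

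For these 4 lists the shares past the threshold in old against young HSCs were 0 of 4, 5 of 11, 7 of 15 and 13 of 24 (12 by DESeq2), against the background of 39.4%. Their median log2 fold changes were 0.08, -0.01, 0.03 and 0.07, against -0.03 over all tested genes. In treated against untreated old HSCs, 0 genes of each list passed by edgeR or DESeq2, and 1, 0, 1 and 1 had an unadjusted p under 0.05, with medians of 0.07, -0.04, 0.01 and -0.07 against 0.00 over all tested genes. With 1.19% of all tested genes past the threshold and 8.83% at an unadjusted p under 0.05, these counts set no list apart. In treated old against young HSCs, 2 rose of the 4 regulators, 4 rose of 11 elongation genes, 3 rose and 2 fell of 15 supply genes, and 7 rose and 3 fell of 24 genes of use and return, against 37.6% of all tested genes past the threshold. Acer2, an alkaline ceramidase gene, was lower in both old groups, at 4.17 ± 0.341 CPM in treated old, 4.36 ± 0.458 CPM in old and 9.93 ± 2.89 CPM in young HSCs (adjusted p = 1.45e-05 for treated old and 2.01e-05 for old against young).

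**Figure D4:**
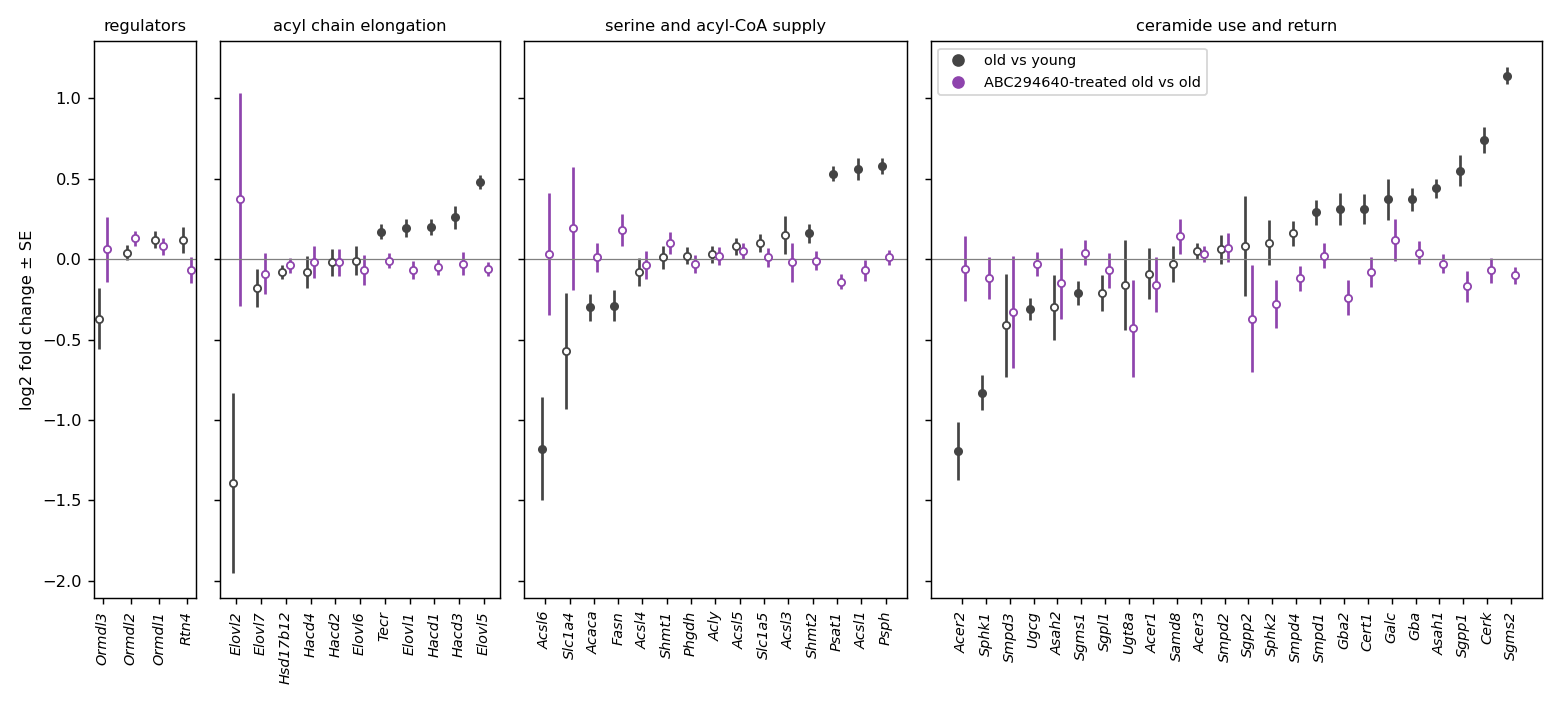
Log2 fold change ± SE (y axis) of each tested gene of the 4 lists around the pathway (x axis), for old against young and for treated against untreated old HSCs. Filled points have an adjusted p under 0.05. Sgms2 is the highest point of old against young HSCs at 1.14, and all points of treated against untreated old HSCs are open.

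The genes whose pattern over the 9 libraries lay nearest were found by the root mean square difference of log2 CPM, centred on each gene, among 7872 other genes of at least 10 CPM. Nearest to Sptlc2 were Dnajb11, a co-chaperone gene of the endoplasmic reticulum, at 0.025, the phosphodiesterase gene Pde4d at 0.031 and Elovl5 at 0.032. Dnajb11 averaged 129 ± 3.17 CPM in treated old, 136 ± 2.31 CPM in old and 95.7 ± 1.66 CPM in young HSCs. Nearest to Degs1 were the survival gene Bcl2 at 0.039, Itpripl1 at 0.045 and the DNA sensor gene Cgas at 0.052. Bcl2 averaged 22.4 ± 0.522 CPM in treated old, 22.2 ± 1.14 CPM in old and 30.3 ± 1.92 CPM in young HSCs.

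For Degs2, searched after its values were seen, the nearest gene was Gm10184 at 0.268. Next came the decoy interleukin receptor gene Il1r2 at 0.275 and the immunoglobulin gene Iglc2 at 0.28. The distance is not scaled to the size of a gene's change or to its counting noise. These values therefore cannot be ranked against those of Sptlc2 and Degs1. Il1r2 averaged 36.4 ± 1.01 CPM in treated old, 42.7 ± 1.54 CPM in old and 6.03 ± 0.298 CPM in young HSCs.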

How the data were processed

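Per the labels' protocols, cDNA was made from polyadenylated RNA of 1500 sorted cells with 12 cycles of PCR. The authors deposited estimated counts (expected counts) per gene, of which 56.0% of non-zero values were whole. They were rounded before testing. The submitters' processing notes name mm10, edgeR 3.24.3, HTSeq 0.10.0, STAR 2.6.1d and Trim Galore 0.6.2, with no role or order. Neither the step that gave fractions nor any use of strand is stated.

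Genes were tested with edgeR 4.0.16 (R 4.3.3, limma 3.58.1), TMM, its filter by group and 1 quasi-likelihood fit over the 9 libraries by group, without covariates, checked on simulated data. Standard errors were back-calculated from the log2 fold change and the F statistic of that fit, so they are approximate. Intervals of fold changes are 95% intervals built from these standard errors. Reads amplified without molecular identifiers are not independent molecules. Gene lengths, overlaps and positions came from GENCODE M21 (GRCm38), promoter sequences from RefSeq. Alternatives were RLE factors, library totals, DESeq2 1.42.0, no filter, a stricter filter (5 CPM or more in 3 or more libraries), fits of only the 2 groups compared, a replicate block, and each library left out. Python 3.11.15, numpy 2.4.6, pandas 2.3.3, scipy 1.17.1 and matplotlib 3.10.9 did the rest.

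The 10 genes and the lists were chosen with earlier results of these data known. The text names all 10, up to 4 genes of smallest p past the threshold per list and comparison, and the 3 genes nearest in pattern to Degs1 and Sptlc2. Degs2 was added to that search, and Sphk2 named as the inhibitor's target, after values were seen. Cers1, Vpreb1 and Hbb-bs, on the fixed lists, were not analysed here.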

Additional observations from a re-analysis of the deposited data

How the results depend on the processing

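Under 16 other fits, 158 of 160 values of the 10 genes kept their direction, where called, and their side of the threshold in old against young HSCs, as did 160 of 160 in treated against untreated old HSCs and 157 of 160 in treated old against young HSCs. The exceptions were Sptssa and Cers5, as given above. With library totals as the only scaling, which moved the median of all genes by -0.08 in old against young and by -0.10 in treated old against young HSCs, 2 of the 10 genes were lower in old HSCs in place of 1, and the cause was not tested. Degs2 ran from 2.72 to 3.14 in old against young HSCs with 1 library left out. The number of all genes past the threshold in treated against untreated old HSCs was 333 without a filter and 260 in a fit of the 2 groups alone, and ran from 48 to 286 with 1 library left out, the cause being not tested. Whether replicate numbers pair the samples is not settled here. Deviations of same-numbered libraries correlated at -0.07 to 0.13, and each young library correlated best with the old library of its number, while no treated library did so with its own number in either group. With the replicate block, 6, 0 and 7 of the 10 genes passed in old against young, treated against untreated old, and treated old against young HSCs, as without it, and 5582, 195 and 5355 of all genes. Depth limits Cers4 and young Degs2 most, at about 10 CPM or less.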
